A study of Mus musculus with 10 samples.

Results

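The mitotic programme was examined through 48 genes that carry a cell from entry into mitosis to the separation of its daughters. They were taken by symbol from a fixed list and all 48 were found among the 55359 genes of the deposited table and passed the filter on low values, which left 18742 genes. The list covers the cyclin-dependent kinase CDK1 with its cyclins and activators, the kinases and motors that build the spindle, the chromosomal passenger complex, the spindle checkpoint, the kinetochore, the central spindle and cleavage furrow, the condensins with topoisomerase II, and the machinery that starts anaphase.

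In dividing cells CDK1 bound to cyclin B starts mitosis, motors and kinases assemble a bipolar spindle, and kinetochores tie each chromatid to it. The spindle checkpoint holds back the anaphase-promoting complex (APC/C), a ubiquitin ligase, until all kinetochores are attached. The APC/C with its activator CDC20 then releases separase and destroys cyclin B, and the central spindle positions the furrow that divides the cell. Transcripts of most of these genes accumulate in G2 and M phase, through the MuvB, B-MYB and FOXM1 factors acting at the cell cycle genes homology region (CHR) and NF-Y acting at CCAAT boxes. In bone marrow, lineage-committed progenitors divide rapidly whereas long-term stem cells are mostly quiescent.

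RNA was sequenced from lineage-negative (Lin-) bone marrow cells, which are left after depletion of cells bearing mature blood cell markers, in 5 libraries from Dhx9f/f mice (WT) and 5 from Dhx9f/f;MX1 mice (cKO). All mice of both groups carried floxed alleles of Dhx9, which encodes an RNA and DNA helicase, and the cKO mice also carried Cre recombinase under the interferon-responsive Mx1 promoter. By the study's general methods Cre was induced with repeated poly(I:C), an RNA mimic that itself triggers interferon. Whether the sequenced WT mice received poly(I:C), and the age of the mice, are not given in the sources used here. Mx1-Cre acts in marrow cells broadly and not in Lin- cells alone, and unrecombined cells can remain. The study's general statement on statistics counts individual mice as replicates, but the labels do not tie each library to an animal, so p-values measure the spread between these libraries, which may be partly technical.

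Estimated depth was 13835000 to 18710000 fragments per library. The targeted gene Dhx9 went against the labels. It was at 65.43 to 72.42 FPKM (fragment numbers divided by the length of the gene and the depth of the library) in the 5 libraries labelled WT and at 130.82 to 156.49 FPKM in the 5 libraries labelled cKO, with no overlap (adjusted p = 1.39e-05). Directions below therefore rest on labels that this gene does not bear out, and cKO means the libraries labelled cKO throughout. Xist, expressed from the inactive X chromosome of female cells, was at 99.19 to 127.76 FPKM in WT replicates 3, 4 and 5 and at most 0.09 FPKM in the other 7 libraries, so the sexes were not balanced between the groups. The summed FPKM of 9 erythroid markers was 473.51 to 1378.36 in WT and 1875.43 to 2916.92 in cKO, and all 9 rose. The 8 monocyte and dendritic cell markers all fell, with sums of 918.93 to 1597.94 against 8.15 to 271.91, as did all 6 megakaryocyte markers, all 5 mast cell and basophil markers and 7 of 8 stem and progenitor markers. The 8 stem and progenitor markers summed to 87.26 to 119.13 FPKM in WT and 21.43 to 45.16 in cKO. In the other lists 4 of 8 neutrophil, 2 of 5 B lymphoid, 3 of 6 T and NK and 5 of 6 stromal and endothelial markers fell and none rose. No marker of these lists was at 0 throughout a group. In such bulk samples fewer cells of a type and less RNA per cell cannot be told apart, and the part that these marker differences have in the results below was not tested.

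Most mitotic genes differed little between the groups. Of the 48 genes, 3 rose in cKO (Cdc20, Ube2c and Mad2l1), 13 fell (Knl1, Nuf2, Kif23, Top2a, Racgap1, Bub1b, Ect2, Anln, Kif11, Kif20b, Kif2c, Spc24 and Bub1) and 32 did not pass the test, which was limma with Benjamini-Hochberg adjustment over all genes tested and a threshold of 0.05. The shares were 6.25% higher and 27.1% lower, beside 16.7% higher and 28.3% lower among all genes tested, so the share that fell lay near the background. Among 8035 genes whose mean reached 5 FPKM, a level that every mitotic gene passed, 27.2% were higher and 26.5% lower. No mitotic gene changed by 2-fold or more in either direction, as 21.4% of all genes tested and 12.0% of those whose mean reached 5 FPKM did.

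Sizes of change were also small. The median absolute log2 fold change of the 48 genes was 0.16, beside 0.48 over all genes tested and 0.31 over those whose mean reached 5 FPKM. Their median signed log2 fold change was -0.05, beside -0.11 over all genes tested, and it turned to 0.05 under median-ratio scaling, where the median of all genes was -0.01. Under that scaling 5 genes rose and 8 fell, so that 38.5% of the called genes were higher in place of 18.8%. Over all genes tested that share moved the same way, from 37.2% to 46.4%. Quantile normalization moved the median of all genes from -0.11 to 0.10, and relative to all genes the median of the mitotic genes was then -0.17 in place of 0.05. Of the called genes, 8 of the 13 that fell and 2 of the 3 that rose had groups that did not overlap. In all, 9 genes had every cKO library below every WT library and 2 had every cKO library above, or 18.8% and 4.17%, beside 21.6% and 10.6% of all genes tested.

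**Figure D1:**
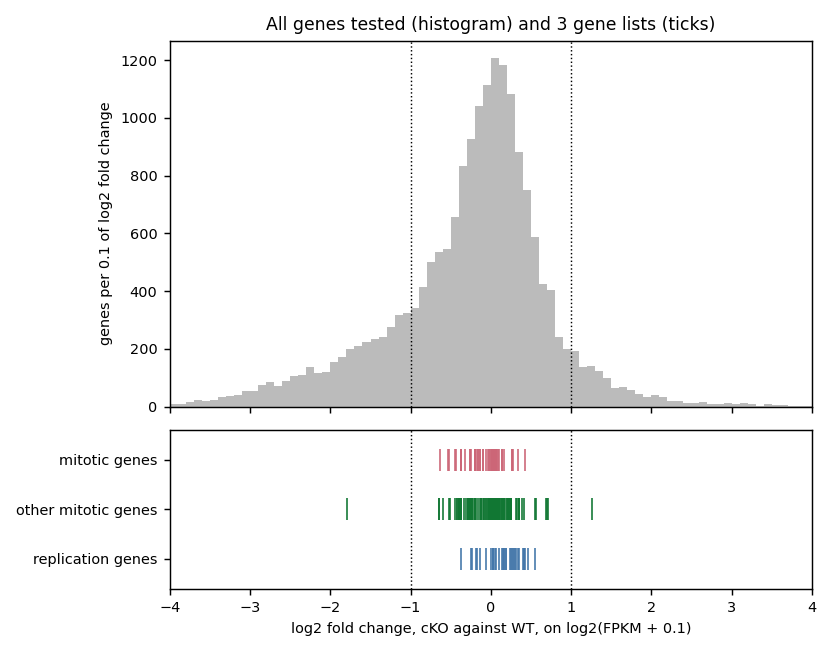
Log2 fold change of cKO against WT on the log2(FPKM + 0.1) scale. Grey bars count all genes tested per 0.1 of log2 fold change (values beyond 4 in either direction are outside the axis), and ticks below mark each of the 48 mitotic genes, 113 other mitotic genes and 36 replication genes. Dotted lines mark a 2-fold change, which none of the 48 mitotic genes passed.

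The library cKO replicate 1 stood apart from the other cKO libraries. It was the highest cKO library in 40 of the 48 genes and the highest of all 10 libraries in 27. Neither count was made over all genes tested. The sum of the 48 genes was 2304.17 FPKM in cKO replicate 1, 1735.19 to 1857.44 in cKO replicates 2 to 5 and 1864.23 to 2088.11 in WT. Replicate 1 of cKO also had the highest mean log2(FPKM + 0.1) of the 36 replication genes, 5.53. There cKO replicates 2 to 5 were at 5.25 to 5.33 and WT at 5.03 to 5.42. For the 113 other mitotic genes cKO replicates 2 to 5 were at 4.11 to 4.17, WT at 4.16 to 4.28 and cKO replicate 1 at 4.38. Its neutrophil markers summed to 2276.08 FPKM and its mast cell and basophil markers to 570.98, above the 144.59 to 1100.17 and 78.48 to 294.61 of the other cKO libraries and below the lowest WT sums of 2704.82 and 662.88. Its megakaryocyte sum (180.2, others up to 153.45) and stromal and endothelial sum (1.08, others up to 1.05) also lay above them. Its other sums lay within their range: erythroid (2900.36, others 1875.43 to 2916.92), monocyte and dendritic cell (65.05, others 8.15 to 271.91), and stem and progenitor (39.8, others 21.43 to 45.16). The same held for B lymphoid (2.32) and T and NK markers (23.99). Replicate 1 of cKO was also the shallowest library. The part of these differences in its mitotic levels was not tested.

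Without cKO replicate 1, 3 mitotic genes rose and 22 fell, or 6.25% and 45.8%, beside 19.3% and 30.7% of all genes tested in that fit. The 3 that rose were the same and 12 of the 13 that fell fell again, the exception being Spc24 (adjusted p = 0.0568). The genes that fell without it but not with all 10 libraries were Aurkb, Ttk, Cenpa, Cenpe, Cenpf, Ndc80, Nusap1, Prc1, Ncapd2 and Espl1. The median log2 fold change was then -0.16 beside -0.12 over all genes, and 20 genes (41.7%) had every remaining cKO library below every WT library and 3 (6.25%) above, beside 26.1% and 15.7% of all genes tested. No gene changed by 2-fold or more without it either, beside 22.3% of all genes tested. Leaving out cKO replicate 2 instead left 8 genes lower.

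**Figure D2:**
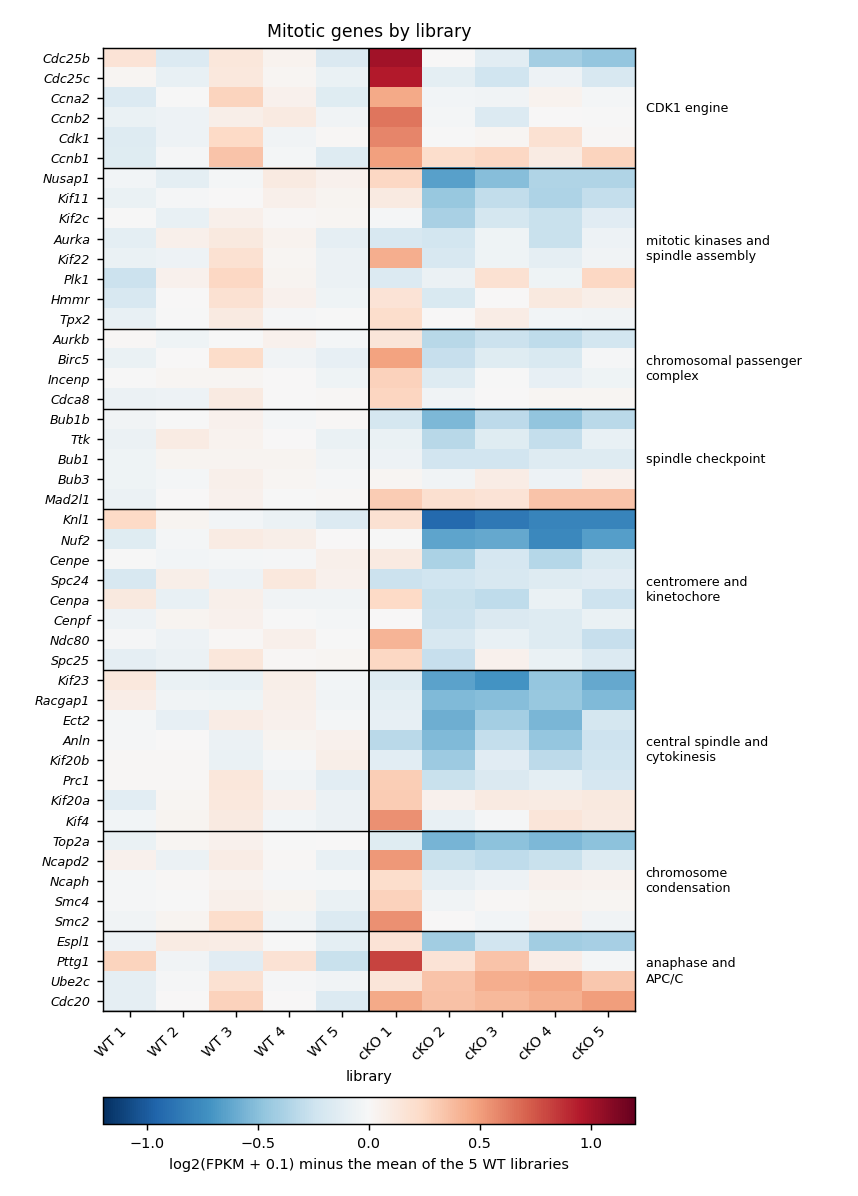
Heat map of log2(FPKM + 0.1) minus the mean of the 5 WT libraries for 48 mitotic genes (rows, by role) in 10 libraries (columns); red is above and blue below the WT mean. The column of cKO replicate 1 is redder than those of cKO replicates 2 to 5, and the kinetochore and central spindle genes are bluest in the latter.

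Promoter sequence, which the list did not use, was examined next. RefSeq's table, built on GRCm38.p6, gave a window of 250 bases before to 50 bases after the start for 40 of the 48 genes. A CHR, taken as TTTGAA on either strand, was present in 30 of 40 windows (75.0%, Wilson 95% interval 59.81 to 85.81) and in 12.94% of the windows of tested genes. CCAAT on either strand was present in 29 (72.5%, 57.17 to 83.89), beside 38.79%. The E2F motifs TTCCCGC or TTGGCGC were present on either strand in 5 (12.5%), beside 11.98%. A CCAAT box shares bases with another motif in 3 windows. Both a CHR and a CCAAT box were present in 25 windows and none of the motifs in 5. The CHR nearest to the start lay within 50 bases of it in 28 of the 30 genes.

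CHR and CCAAT boxes were found in genes of each class, and the E2F motifs in 0 of the 3 windows of genes that rose. A CHR was present in 2 of the 3 windows of genes that rose, 10 of 12 of those that fell and 18 of 25 of those not called. These are descriptions of letters in a window, not of bound sites. The stretches below run from 150 bases before to 30 after the RefSeq start and were located by exact match in GRCm39. They are shown for 2 of the 3 genes that rose and 3 of the 5 that fell in every setting, chosen among those with both motifs to show that either class can carry them. The window of Mad2l1, the third gene that rose, held none of the motifs. Capitals mark CHR matches (TTTGAA, or TTCAAA on the other strand) and CCAAT boxes (CCAAT, or ATTGG on the other strand).
Cdc20, chr4:118294511-118294690, minus strand: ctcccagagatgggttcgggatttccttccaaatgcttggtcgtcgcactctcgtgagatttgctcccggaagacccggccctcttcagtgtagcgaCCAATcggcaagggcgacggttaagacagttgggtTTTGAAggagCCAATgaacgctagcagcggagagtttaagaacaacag
Ube2c, chr2:164611699-164611878, plus strand: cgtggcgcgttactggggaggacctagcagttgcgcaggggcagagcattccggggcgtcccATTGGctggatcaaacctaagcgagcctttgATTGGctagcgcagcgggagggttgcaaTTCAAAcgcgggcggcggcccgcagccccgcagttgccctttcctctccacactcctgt
Top2a, chr11:98914986-98915165, minus strand: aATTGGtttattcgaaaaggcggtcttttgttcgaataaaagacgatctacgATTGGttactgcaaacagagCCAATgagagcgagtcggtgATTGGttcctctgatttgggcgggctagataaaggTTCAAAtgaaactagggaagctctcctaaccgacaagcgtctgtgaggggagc
Racgap1, chr15:99549508-99549687, minus strand: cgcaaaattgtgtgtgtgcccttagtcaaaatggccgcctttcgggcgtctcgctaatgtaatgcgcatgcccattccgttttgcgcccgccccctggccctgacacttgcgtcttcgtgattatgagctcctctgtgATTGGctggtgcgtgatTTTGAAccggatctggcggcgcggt
Kif23, chr9:61854052-61854231, minus strand: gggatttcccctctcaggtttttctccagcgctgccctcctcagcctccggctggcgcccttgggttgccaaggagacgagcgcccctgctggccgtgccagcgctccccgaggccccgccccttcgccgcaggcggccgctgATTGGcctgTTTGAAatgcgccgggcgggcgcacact

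In the Cdc20, Racgap1 and Kif23 stretches a CHR and a CCAAT box stand close to the start, and Ube2c and Top2a hold more than 1 CCAAT box upstream of a single CHR. The widest GENCODE models of Cdc20, Ube2c, Top2a and Racgap1 begin upstream of the RefSeq start used here.

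**Figure D3:**
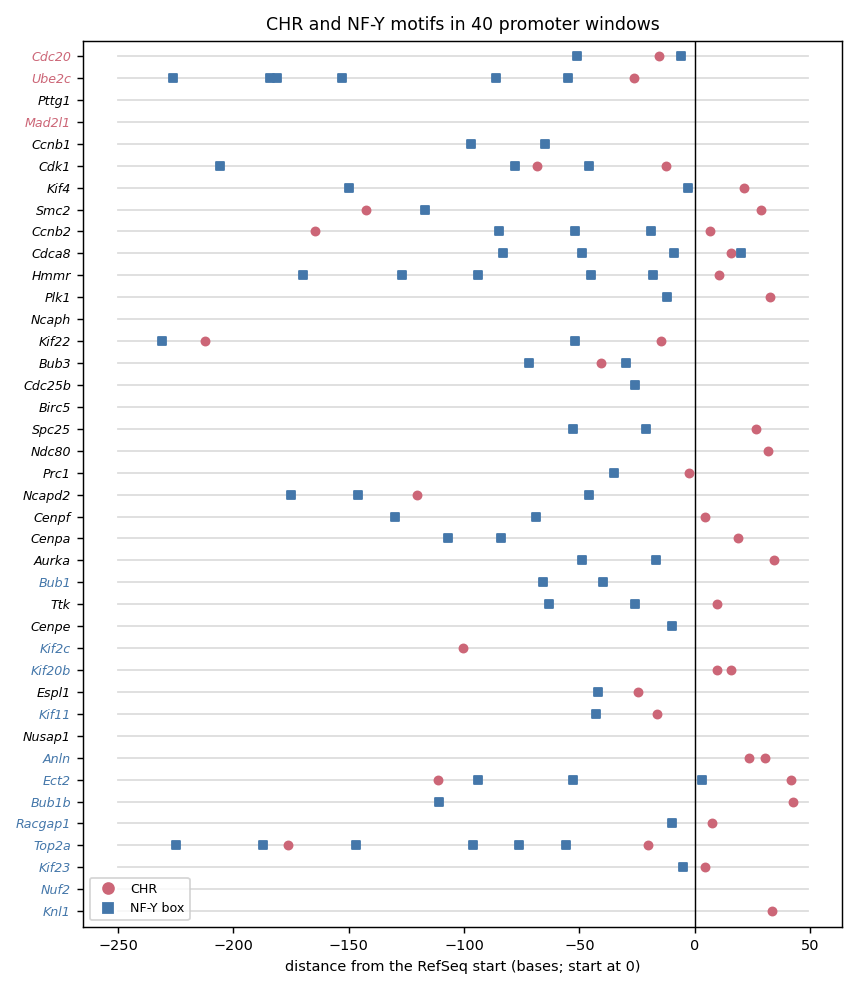
Positions of CHR (circles) and CCAAT boxes, labelled NF-Y box (squares), along the 300-base windows of 40 mitotic genes, as distance in bases from the RefSeq start. Genes are ordered from the lowest log2 fold change (bottom) to the highest (top), with names in red for the 3 that rose and blue for the 12 that fell. Circles gather near the start in 28 of the 30 genes with a CHR, in all 3 classes.

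Genes of the CDK1 engine did not pass the test. The group holds Cdk1 itself, its partners cyclin B1 (Ccnb1), B2 (Ccnb2) and A2 (Ccna2), and the phosphatases Cdc25b and Cdc25c that remove its inhibitory phosphates. Their log2 fold changes ran from 0.00 to 0.26. Ccnb1 had the largest, 0.26 (SE 0.103, adjusted p = 0.0597). It was at 45.68, 49.88, 64.07, 49.58 and 45.5 FPKM in WT and 70.97, 58.39, 60.21, 53.94 and 60.83 in cKO, so that only WT replicate 3 lay among the cKO libraries. Without WT replicate 3 it passed the test (adjusted p = 0.00604), as it did without cKO replicate 4 (0.0465). Ccnb2, the most abundant of the group, was at 98.45 to 111.74 FPKM in WT and at 92.67 to 103.94 in cKO replicates 2 to 5, and at 162.21 in cKO replicate 1. Cdk1 was at 30.93 to 40.65 in WT, 34.37 to 39.11 in cKO replicates 2 to 5 and 51.61 in cKO replicate 1. Cdc25b behaved alike at a lower level, with 13.2 to 16.78 in WT, 10.83 to 14.98 in cKO replicates 2 to 5 and 30.16 in cKO replicate 1. The mean of the 6 genes relative to WT was 0.69 on the log2 scale in cKO replicate 1 and between -0.07 and 0.01 in the other 4, so the group's positive median of 0.09 was -0.03 without that library.

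**Figure D4:**
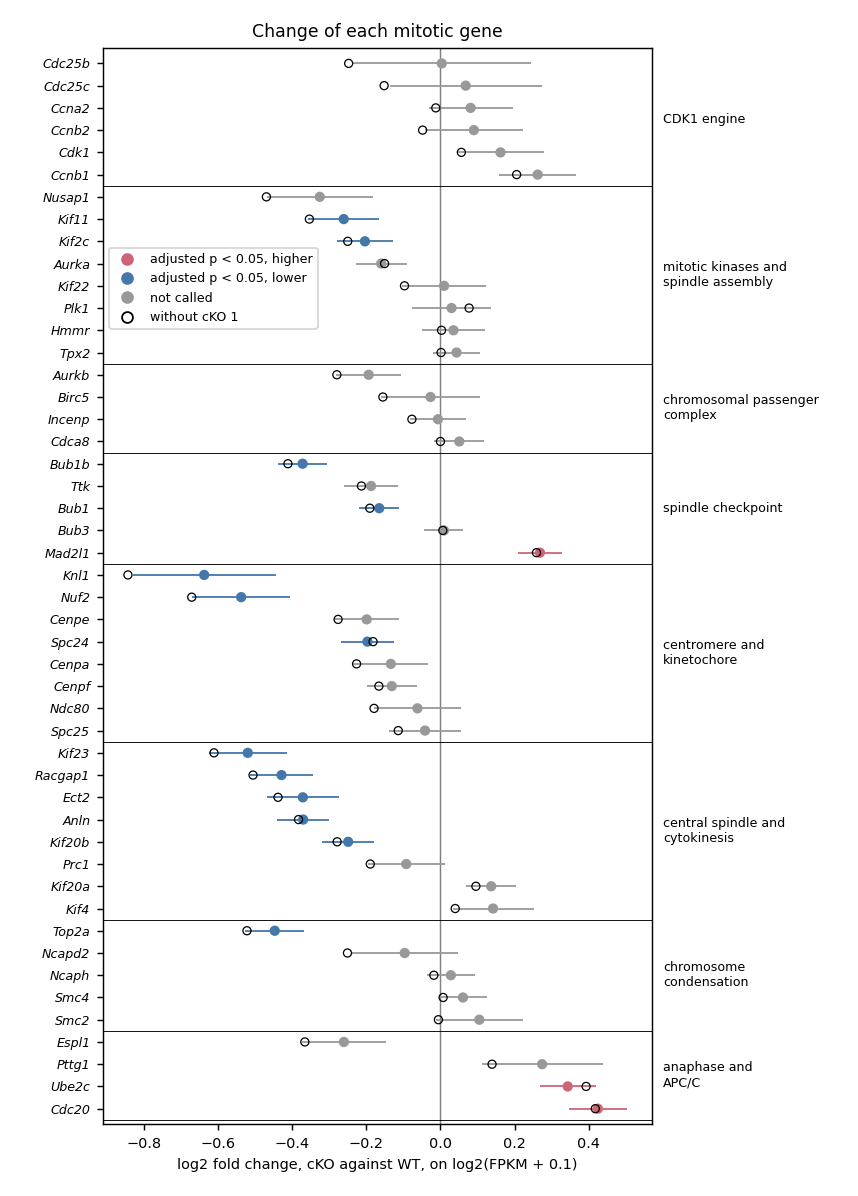
Log2 fold change of cKO against WT with its standard error (filled points, n = 5 per group) for 48 mitotic genes grouped by role, and the same without cKO replicate 1 (open circles). Red points mark the 3 genes that rose, blue the 13 that fell and grey those not called; no point passes -1 or 1. Most open circles lie to the left of the filled points.

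Among the mitotic kinases and spindle assembly factors, 2 of 8 fell, none rose and 6 were not called. The share that fell was 25.0%, beside 28.3% of all genes tested. Kif11 encodes the motor that pushes spindle poles apart. It was at 50.4, 52.46, 53.26, 55.27 and 54.44 FPKM in WT and 57.35, 38.75, 43.27, 40.99 and 43.43 in cKO, with cKO replicate 1 above every other library and the other 4 below every WT library. Its log2 fold change was -0.26 (SE 0.0953, adjusted p = 0.0444), and -0.35 without cKO replicate 1 (adjusted p = 0.000477). Kif2c, a microtubule depolymerase that corrects wrong attachments, fell by 0.20 on the log2 scale (SE 0.0748, adjusted p = 0.0453). It was at 16.88 to 18.72 FPKM in WT and 13.69 to 17.72 in cKO, so the groups overlapped. The Kif11 call was lost when any library other than cKO replicate 1 was left out (adjusted p up to 0.108). That of Kif2c was lost without any of WT replicates 1, 3, 4 and 5 and cKO replicates 2, 3 and 4 (up to 0.106), and both were lost under median-ratio scaling. Nusap1, which bundles spindle microtubules, had the largest difference of the group, -0.33, but a wide spread (SE 0.143, adjusted p = 0.0858). Its cKO libraries were at 55.15 and then 29.45 to 36.14 FPKM, against 42.8 to 50.05 in WT. The most abundant of these genes, Plk1, the polo-like kinase that acts at each step of mitosis, was at 70.1 ± 8.93 FPKM in WT and 71.5 ± 8.83 in cKO (SD, n = 5 each), with no call (adjusted p = 0.842). The kinase Aurka, its activator Tpx2, the motor Kif22 and Hmmr were not called either, with log2 fold changes between -0.16 and 0.04.

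No gene of the chromosomal passenger complex was called. The complex consists of the kinase Aurkb with Incenp, survivin (Birc5) and borealin (Cdca8), and it moves from centromeres to the central spindle. Incenp, the most abundant, was at 60.56 to 63.87 FPKM in WT and 56.49 to 75.89 in cKO, a log2 fold change of -0.01 (SE 0.0763). Aurkb was at 49.8 to 53.57 in WT and 40.76 to 44.31 in cKO replicates 2 to 5, and at 57.17 in cKO replicate 1. Its log2 fold change of -0.19 was not called (adjusted p = 0.0947), and was -0.28 without that library (adjusted p = 0.00072). Birc5 and Cdca8, at -0.03 and 0.05, were not called in any setting tried.

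The spindle checkpoint genes moved in both directions, with 1 of 5 higher, 2 lower and 2 not called. Among all genes tested 16.7% were higher and 28.3% lower, and a difference of these 5 genes from that background was not tested. Mad2l1 encodes MAD2, which binds and holds CDC20. It was at 19.27, 20.23, 20.95, 20.14 and 20.46 FPKM in WT and 25, 23.02, 22.59, 25.64 and 25.7 in cKO. Every cKO library was above every WT library, and its log2 fold change was 0.27 (SE 0.0590, adjusted p = 0.00366). Bub1b encodes BUBR1, a partner of MAD2 in the same inhibitor of the APC/C. It was at 54.24, 55.69, 57.8, 54.82 and 56.25 FPKM in WT and 48.05, 38.35, 44.91, 40.17 and 44.51 in cKO, with no overlap, and fell by 0.37 on the log2 scale (SE 0.0662, adjusted p = 0.00107). The kinase Bub1 fell by 0.17 (SE 0.0534, adjusted p = 0.0265), from 30.36 to 32.24 FPKM in WT to 26.83 to 30.14 in cKO. Ttk, the kinase MPS1 that starts checkpoint signalling, also had every cKO library below every WT library, at 10.61 to 12.62 against 12.68 to 14.31 FPKM. The exact permutation test of its group means gave p = 0.00794, the smallest that 5 against 5 allows, which the lack of overlap fixes in advance. Limma's p was 0.0283 before adjustment and 0.0602 after it. Adjusted values were 0.0284 and 0.0481 without cKO replicate 1 or 5. Bub3, which recruits BUB1 and BUBR1 to kinetochores, was at 26.5 ± 0.784 FPKM in WT and 26.7 ± 1.17 in cKO (SD, n = 5 each). The rise of Mad2l1 held in each of 20 other settings, as did the fall of Bub1b, whereas that of Bub1 was lost without WT replicate 2 or 4 or cKO replicate 2 or 3 (adjusted p up to 0.0665).

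All 8 centromere and kinetochore genes had a negative log2 fold change, as did 10551 of the 18742 genes tested. Of the 8, 3 fell, or 37.5% beside 28.3% of all genes tested. Their median log2 fold change was -0.17, beside -0.11 over all genes tested. Under median-ratio scaling and under quantile normalization 2 of the 8 were above 0. Knl1 encodes the scaffold on which checkpoint proteins gather. It was at 33.36, 28.89, 27.58, 26.99 and 25.27 FPKM in WT and 32.2, 14.78, 15.56, 16.28 and 16.34 in cKO. Thus cKO replicate 1 sat at the upper end of the WT range and the other 4 stood far below it. The log2 fold change was -0.64 (SE 0.193, adjusted p = 0.0196), the largest of the 48 in size, and -0.84 without cKO replicate 1 (SE 0.0797, adjusted p = 9.35e-05). Nuf2, a subunit of the NDC80 complex that grips microtubules, had the same pattern. It was at 16.31, 17.85, 19.36, 18.95 and 18.19 FPKM in WT and 18.05, 11.66, 11.8, 10.52 and 11.39 in cKO, with a log2 fold change of -0.54 (SE 0.133, adjusted p = 0.00689). The Knl1 call was narrowly lost without WT replicate 1 (adjusted p = 0.0519) or cKO replicate 2 (0.052). Exact permutation tests of the group means gave p = 0.0397 for Knl1 and 0.0238 for Nuf2.

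The other subunits of the NDC80 complex did not share the size of the Nuf2 change, although the differences between subunits were not tested. Ndc80 itself was at 10.65 to 11.62 FPKM in WT and 9.15 to 14.74 in cKO (log2 fold change -0.06). Spc25 was at 15.42 to 18.28 in WT and 13.74 to 19.74 in cKO (-0.04), and neither was called. Spc24 fell by 0.20 on the log2 scale (adjusted p = 0.0415), with 19.06 to 23.91 FPKM in WT and 18.23 to 19.85 in cKO. The call was lost without any of WT replicates 2, 4 and 5 and cKO replicates 1 to 4 (adjusted p up to 0.104). It was the only gene of the 8 in which cKO replicate 1 was the lowest cKO library. Cenpa, the histone variant that marks centromeres, was the most abundant of the 8 and was at 42.2 ± 2.47 FPKM in WT and 38.8 ± 6.47 in cKO (SD, n = 5 each; adjusted p = 0.311). The kinetochore motor Cenpe and the large fibrous protein Cenpf were not called, at -0.20 and -0.13. Without cKO replicate 1, 6 of the 8 fell, all but Spc24 and Spc25, beside 30.7% of all genes tested in that fit.

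Of the 8 genes of the central spindle and cleavage furrow, 5 fell and none rose, or 62.5% beside the 28.3% of all genes tested that fell, with a median log2 fold change of -0.31. Without cKO replicate 1, 6 fell, and with the Xist covariate 3 did, beside 30.7% and 21.5% of all genes tested in those fits. Differences between roles were not tested. Kif23 and Racgap1 encode the 2 subunits of centralspindlin, the complex that bundles the central spindle. Kif23 was at 21.2, 18.43, 18.31, 20.44 and 19.03 FPKM in WT and 17.45, 12.41, 11.78, 14.08 and 12.64 in cKO, and fell by 0.52 on the log2 scale (SE 0.105, adjusted p = 0.00227). Racgap1 was at 29.29, 27.04, 26.8, 28.93 and 26.96 FPKM in WT and 25.53, 19.19, 19.5, 20.3 and 19.19 in cKO, and fell by 0.43 (SE 0.0841, adjusted p = 0.00191). In both genes cKO replicate 1 was the cKO library nearest to WT, yet below every WT library. Ect2 encodes the exchange factor that centralspindlin recruits to activate RhoA. It was at 22.76 to 25.94 FPKM in WT and 16.17 to 22.65 in cKO, with a log2 fold change of -0.37 (SE 0.0964, adjusted p = 0.00911).

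Anillin (Anln), the scaffold of the contractile ring, was at 16.93, 17.17, 16.37, 17.56 and 17.72 FPKM in WT and 13.71, 11.81, 14, 12.44 and 14.42 in cKO. It fell by 0.37 (SE 0.0700, adjusted p = 0.00152), and here cKO replicate 1 lay within the range of the others. Kif20b, a kinesin needed for abscission, fell by 0.25 (SE 0.0700, adjusted p = 0.0137), with 22.41 to 24.92 FPKM in WT and 17.56 to 21.65 in cKO. The 5 genes that fell did not overlap between groups. The remaining 3 of the group act on the same structure but were not called. Kif20a, the motor that carries the passenger complex to the central spindle and the most abundant of the 8, was at 31.15 to 37.07 FPKM in WT and 35.28 to 41.94 in cKO (0.14, adjusted p = 0.125), and was called higher under median-ratio scaling. Prc1, which crosslinks the central spindle, was at 21.53 to 25.9 FPKM in WT and 19.51 to 28.88 in cKO (-0.09). The X-linked kinesin Kif4 was at 18.45 to 20.94 FPKM in WT and 18.3 to 28.49 in cKO (0.14, adjusted p = 0.32), and the WT libraries with Xist (18.45 to 20.94) spanned those without it (18.96 and 19.82).

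**Figure D5:**
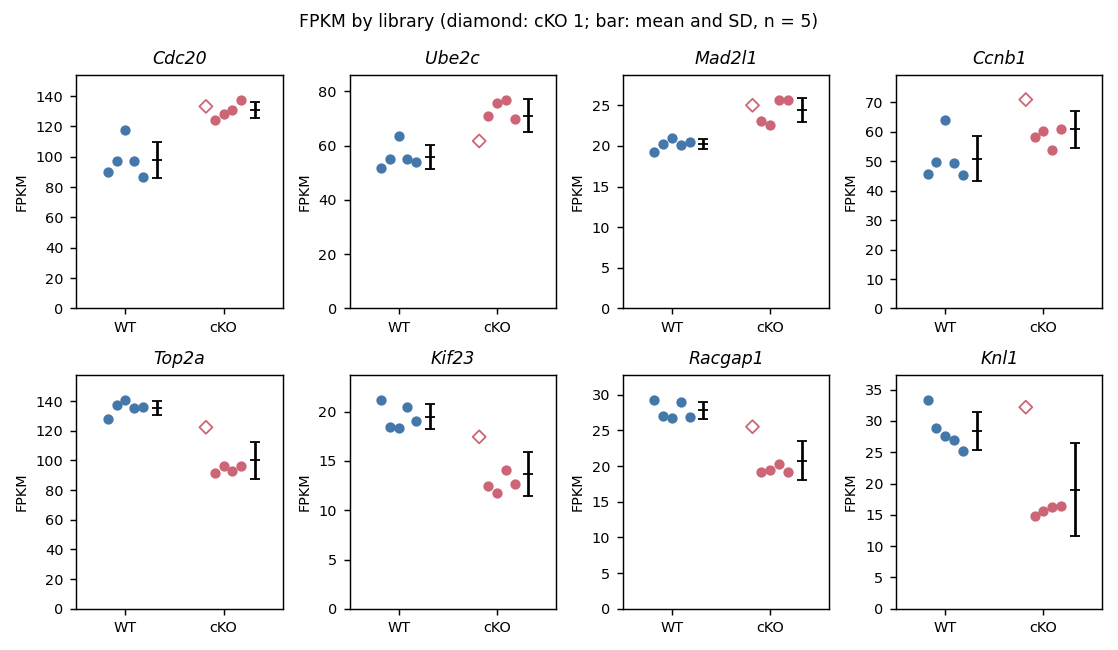
FPKM of 8 mitotic genes in each library, with WT points in blue and cKO points in red, cKO replicate 1 as an open diamond, and the mean and SD of each group beside them (n = 5 each). Cdc20, Ube2c and Mad2l1 are higher in cKO, Ccnb1 was not called, and in Knl1 the diamond lies with the WT points while the other 4 cKO points lie between 14.78 and 16.34 FPKM.

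Of the 5 chromosome condensation genes, Top2a fell and the other 4 were not called. Top2a encodes topoisomerase II alpha, which untangles sister chromatids. It was at 128.14, 137.68, 140.85, 135.48 and 135.91 FPKM in WT and 122.4, 91.86, 96.17, 93.1 and 96.43 in cKO. No cKO library reached the WT range, and the log2 fold change was -0.45 (SE 0.0792, adjusted p = 0.00105). The condensin subunits Smc2, Smc4, Ncapd2 and Ncaph had log2 fold changes of 0.10, 0.06, -0.10 and 0.03. In Ncapd2 cKO replicate 1 was at 114.59 FPKM, above the WT libraries at 75.21 to 85.11, and the other cKO libraries were at 64.42 to 71.54, below them. Smc4, which had the second highest mean after Top2a, was at 107.23 to 118.18 FPKM in WT and 110.06 to 137.11 in cKO.

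The anaphase and APC/C genes held 2 of the 3 rises. Cdc20 encodes the activator of the APC/C that the checkpoint restrains. It was at 90.24, 97.43, 117.59, 97.42 and 86.92 FPKM in WT and 133.22, 124.25, 127.88, 131.01 and 137.7 in cKO, with every cKO library above every WT library. Its log2 fold change was 0.42 (SE 0.0790, adjusted p = 0.00138), the largest rise of the 48, or 1.34-fold. Ube2c, the ubiquitin-conjugating enzyme that starts chains on APC/C substrates, was at 51.79, 55.18, 63.41, 55.25 and 54.11 FPKM in WT and 61.72, 71.01, 75.75, 76.97 and 69.8 in cKO. It rose by 0.34 (SE 0.0757, adjusted p = 0.00374), with cKO replicate 1 below WT replicate 3 as the only overlap. Both rises held in each of 20 other settings. Securin (Pttg1), the inhibitor of separase, was at 6.52 to 9.45 FPKM in WT and 7.73 to 13.87 in cKO (0.27, adjusted p = 0.196). Separase itself (Espl1), which cleaves cohesin, was at 13.9 to 16.17 FPKM in WT and 11.25 to 16.88 in cKO (-0.26, adjusted p = 0.0856), and fell without cKO replicate 1 (-0.37, adjusted p = 0.00182).

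In each of the 20 other settings that were tried, Cdc20, Mad2l1 and Ube2c rose and Anln, Bub1b, Kif23, Racgap1 and Top2a fell. With a covariate for Xist, which WT replicates 3, 4 and 5 express, 3 genes rose and 6 fell, Knl1 being the sixth, beside 10.9% and 21.5% of all genes tested in that fit. The calls of Bub1, Kif11, Kif20b, Kif2c, Nuf2, Spc24 and Ect2 were lost there. Sex and genotype are partly confounded, since no cKO library expressed Xist.

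Gene length, which the list did not use, varied with the change. Across the 48 genes Spearman's rho between log2 fold change and gene span was -0.46, and with exon length -0.402, as a description over genes that share libraries. Over 18624 genes tested with a length the values were -0.081 and -0.055, and over 113 other mitotic genes -0.089 and -0.127. The 3 genes that rose spanned 4513 to 11997 bases, the 13 that fell 5065 to 58385 and the 32 not called 6542 to 101604.

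Other genes of the mitotic pathway were counted from a list of 113, all of which were tested. Of these 18 rose and 22 fell, or 15.9% and 19.5%, beside 16.7% and 28.3% of all genes tested, and their median log2 fold change was 0.01. With the Xist covariate 8 rose and 14 fell. Under median-ratio scaling 32 rose and 15 fell, under quantile normalization 28 and 20, and with equal sums per library 13 and 25. Thus 45% of calls were higher as deposited and 68.1%, 58.3% and 34.2% in these. Over all genes tested the shares were 37.2% as deposited and 46.4%, 54.5% and 33.5% in the same order. Without cKO replicate 1, 36 fell, and without WT replicate 4, 11 rose. Cep55, which recruits the abscission machinery to the midbody, showed the largest fall. It was at 15.91, 13.22, 10.67, 15.53 and 14.99 FPKM in WT and 5.1, 2.4, 5.96, 2.37 and 5.49 in cKO, a log2 fold change of -1.79 (SE 0.272, adjusted p = 0.000443). Of the 4 other cytokinesis genes 3 fell, or 75.0% beside 28.3% of all genes tested. Besides Cep55 these were Rhoa (-0.24) and Arhgef2 (-0.65). Of the 31 other centromere and kinetochore genes 4 rose and 9 fell, or 12.9% and 29.0%, near the shares of all genes tested.

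Of the 15 transcriptional regulators of the programme on that list, 3 rose, 2 fell and 10 were not called, with a median log2 fold change of -0.04. Among all genes tested 16.7% were higher and 28.3% lower, with a median of -0.11. A difference of the 15 regulators from that background was not tested. Foxm1, an activator of G2/M genes, was at 17.9 to 20.96 FPKM in WT and 11.46 to 16.55 in cKO, and fell by 0.60 (SE 0.0967, adjusted p = 0.000605). Mybl2, which encodes B-MYB and acts at the same promoters, was at 18.16 to 28.29 FPKM in WT and 28.89 to 48.37 in cKO, and rose by 0.72 (SE 0.144, adjusted p = 0.00223). E2f2 rose by 1.27 (adjusted p = 0.00155), from 15.16 to 25.04 FPKM in WT to 30.57 to 78.29 in cKO. E2f4, which with p130 forms the repressive DREAM complex, rose by 0.70 (adjusted p = 0.0012). Mki67, a general marker of cycling cells that coats mitotic chromosomes, was at 169.56 to 211.86 FPKM in WT and 208.17 to 282.68 in cKO and rose by 0.35 (adjusted p = 0.0127), a call that the Xist covariate removed (adjusted p = 0.0774).

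The 36 replication genes, the nearest part of the cell cycle, had 11 rises and 1 fall, or 30.6% and 2.78%, beside 16.7% and 28.3% of all genes tested, and a median log2 fold change of 0.16. Under median-ratio scaling 16 rose and 1 fell, with equal sums per library 10 and 4, and under quantile normalization 9 and 3. Thus 91.7% of calls were higher as deposited and 94.1%, 71.4% and 75.0% in these. Over all genes tested the shares were 37.2% as deposited and 46.4%, 33.5% and 54.5% in the same order. With the Xist covariate 5 rose and 1 fell. Without WT replicate 3, 17 rose, and without cKO replicate 1, 4 fell. Orc1, a subunit of the origin recognition complex, had the largest difference in size, at 10.15 to 18.22 FPKM in WT and 17.03 to 21.27 in cKO (0.55, SE 0.138, adjusted p = 0.00741). The difference in counts between this list and the 48 mitotic genes was not tested.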

How the data were processed

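RNA-seq of Lin- bone marrow cells gave 10 libraries, 5 labelled WT and 5 labelled cKO. Per the labels and the study's methods, the authors trimmed reads, aligned paired-end reads to GRCm39 and deposited FPKM, rounded, for every gene in each library. The submitters' processing notes name cutadapt 1.9.1, HISAT2 2.0.1 and HTSeq 0.6.1. The annotation, gene lengths and strand setting behind the FPKM are not given in the sources used here, so reads of overlapping or antisense genes cannot be separated.

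Columns were matched to samples by name. Gene symbols, positions and lengths came from GENCODE vM39, in which 54749 of 55359 identifiers were found. Depth was estimated from low values of genes with a single transcript of 500 to 1500 bp. Of these values 95.2 to 96.1% were whole fragments within 0.2 (40% by chance). By that depth and the GENCODE exon length, the fewest fragments of a mitotic gene were about 243, for Pttg1 in WT replicate 5. Counting error was not compared with the spread between libraries. No libraries were duplicates (lowest chi-square per degree of freedom 5.56).

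FPKM are not counts, so limma 3.58.1 (lmFit, eBayes with a trend) in R 4.3.3 was run on log2(FPKM + 0.1), two-sided, over 18742 genes averaging at least 0.1 FPKM, with Benjamini-Hochberg adjustment. Folds on this scale understate changes of low genes. Genes with an adjusted p under 0.05 are said to rise or fall, and the study's threshold of 2-fold was also applied. Single genes whose call and overlap disagreed had exact permutation tests (scipy 1.17.1). The procedure was tested on simulated data in which genes varied independently, so an effect of a library that stands apart was not covered.

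The 48 genes, the other lists and the markers were chosen with earlier results of these data known. Named are the genes called with a 2-fold change, in each role the 2 largest changes, the most abundant gene and those without overlap, genes with an outlying library, Kif4, Dhx9, 3 leading other mitotic genes with Foxm1, Mybl2, E2f4 and Mki67, and the leading replication gene. Other genes are given only to complete a role or list. Genes averaging at least 5 FPKM were added as a background after seeing the data. Vpreb1, a B cell marker, was not matched. Other settings tried were pseudocounts of 0.01 and 1, testing every gene or those averaging at least 1 FPKM, median-ratio, equal-sum and quantile scaling, no trend, a replicate block, a covariate for Xist above 1 FPKM and each library left out. Promoter windows came from RefSeq (GRCm38.p6), the first listed per gene (3 mitotic genes had several).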

Additional observations from a re-analysis of the deposited data

Results flagged for a closer look

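In groups of 5 libraries, a library was singled out where its gap to the nearest other library, divided by the range of the group, exceeded Dixon's critical value of 0.71. Of 96 groups examined (48 genes in WT and in cKO), 24 had such a library, where chance alone gives about 1 in 20, or 4.8. In 22 of them it was cKO replicate 1, each time the highest cKO library, and the genes share that library and so are not independent.

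Among the genes of the CDK1 engine, cKO replicate 1 was far above the others for Cdk1 (51.61 FPKM), Ccnb2 (162.21), Ccna2 (121.06), Cdc25b (30.16) and Cdc25c (11.59, against 5.02 to 5.72 in the other cKO libraries). In spindle assembly and the passenger complex this held for Kif11 (57.35), Kif22 (38.46), Nusap1 (55.15), Aurkb (57.17), Birc5 (60.7) and Cdca8 (35.73). Kinetochore genes with the same pattern were Ndc80 (14.74), Nuf2 (18.05) and Knl1 (32.2, against 14.78 to 16.34 in the others). For the central spindle they were Kif20a (41.94), Prc1 (28.88) and Racgap1 (25.53), and for chromosome condensation and anaphase Top2a (122.4), Smc2 (94.69), Smc4 (137.11), Ncapd2 (114.59) and Espl1 (16.88). The counts without this library are given in the report.

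WT libraries stood apart for 2 genes. For Ccnb1, WT replicate 3 was at 64.07 FPKM where the other WT libraries held 45.5 to 49.88, and without it Ccnb1 was called higher in cKO. For Cenpe, WT replicate 5 was at 27.53 FPKM against 25.86 to 26.32.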

How the results depend on the processing

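No mitotic gene changed by 2-fold in any of the 20 settings. Over 960 gene and setting pairs, 886 kept their side of the threshold, 52 lost a call, 22 gained a call and 0 called values changed sign, while some values that were not called changed sign. Median-ratio scaling gave 5 higher and 8 lower mitotic genes and turned their median log2 fold change to 0.054, and a covariate for Xist left 6 lower. Leaving out each library gave 3 to 4 higher and 8 to 22 lower genes, the 22 without cKO replicate 1 and the 8 without cKO replicate 2. For the other mitotic genes, median-ratio scaling gave 32 higher, quantile normalization 28 higher and the Xist covariate 8 higher and 14 lower. Libraries left out gave 11 to 20 higher and 18 to 36 lower, with 11 higher without WT replicate 4 and 36 lower without cKO replicate 1. Replication genes had 5 higher with the Xist covariate and 16 with median-ratio scaling. They had 2, 4 and 3 lower with a mean of at least 1 FPKM, equal sums and quantile normalization. Left-out libraries gave 8 to 17 higher (17 without WT replicate 3) and 1 to 4 lower (4 without cKO replicate 1). Counting TTCGAA and TTTAAA as CHR raised its share to 87.5%. The causes were not tested.

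Replicate numbers are shared between the groups, but the correlations of same-numbered libraries' deviations were 0.117, 0.026, -0.01, -0.003 and 0.093, and 3 of 5 numbers correlated best with their own, so they were not taken to pair samples. With a replicate block, 3 mitotic genes rose and 10 fell.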
